A study of Homo sapiens with 15 samples.

Results

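RPMI-8226 cells that had spent 3 h in 100 nM KB528 were compared with RPMI-8226 cells that had spent 1 h in the same dose, with 3 RNA-seq libraries at each time. RPMI-8226 is an established human multiple myeloma line, a cancer of plasma cells, and it carries a translocation that drives the transcription factor MAF. The submitters describe KB528 as a compound that blocks the catalytic activity of p300, a lysine acetyltransferase. The 6 libraries were taken from 15. The others were 3 of DMSO at 0 h and 3 each of 100 nM KB528 at 6 h and at 24 h. All 15 came from the same line with no genetic change. Every gene row except the ERCC spike-ins entered if its mean over the 15 libraries was at least 1 TPM (reads divided by gene length and scaled to the sum of the library), which left 12002 of 26364 genes. No vehicle library was taken at 1 h or at 3 h, so time in culture and time in KB528 cannot be told apart. The labels do not say whether the 3 libraries of a time came from separate cultures, so p-values speak only of the spread among these libraries.

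The acetyltransferase p300, encoded by EP300, and its paralog CBP, encoded by CREBBP, add acetyl groups to histones at enhancers and promoters, where bromodomain proteins read them and help RNA polymerase to begin and to elongate. Plasma cells depend on a small set of transcription factors kept at a high level from strong enhancers, among them IRF4, PRDM1 and XBP1, and myeloma cells add MYC and, in this line, MAF. Between an early and a later time in such an inhibitor, the level of a messenger RNA reflects both its synthesis and how fast it is degraded. Total RNA levels of this kind do not separate synthesis from decay.

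The 3 h and 1 h libraries were clearly separate. Correlations of log2(TPM + 1) were between 0.995 and 0.998 within a time and between 0.983 and 0.987 across times, and the first principal component, with 75.4% of the variance, split the times. The next component, with 10.2%, set 3 h replicate 2 at -11.8 against 3 h replicate 3 at 11.3. ERCC spike-ins took 12.9% to 16.6% of the TPM of these libraries, and their relative depth, read from the lowest values, lay within 0.839 to 1.17 times that of 1 h replicate 1. The plasma cell markers summed to 7303 to 7917 TPM at 3 h and 7894 to 8166 TPM at 1 h, with all 13 above the filter. By the test described below, 9 of these 13 (69.2%) were lower at 3 h and 1 (7.69%) higher, beside 31.2% and 14.6% of all tested genes. Of 16 epithelial markers 10 were above the filter, and 6 of the 10 (60%) fell and 0 rose, beside the same shares. Epithelial markers summed to 352 to 355 TPM at 3 h and 414 to 442 TPM at 1 h. The keratin KRT18 averaged 124 TPM at 3 h and 152 TPM at 1 h, the splicing factor ESRP1 20.5 TPM at 3 h and 38.6 TPM at 1 h, and the claudin CLDN4 0.826 TPM at 3 h and 3.63 TPM at 1 h. The adhesion gene EPCAM, at 116 TPM at 3 h and 119.8 TPM at 1 h, did not pass the test. T and NK cell markers came almost entirely from CD8B, with CD3D and CD2 at 0 at both times, and fibroblast and endothelial markers summed to at most 1.01 TPM. The part of these marker levels in the results below was not tested.

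Decreases outnumbered increases and were larger. At an adjusted p below 0.05 (limma on log2(TPM + 1), Benjamini-Hochberg over 12002 genes), 3741 genes (31.2%) were lower at 3 h and 1750 genes (14.6%) were higher, 45.8% of all genes tested. Beyond a log2 fold change of 1, 233 genes (1.94%) were lower and 11 (0.0917%) were higher, and beyond 2 log2 units there were 8 lower genes (0.0667%) and 0 higher ones. The median change over all tested genes was -0.06, with 5% of genes below -0.71 and 5% above 0.35. The split between directions depended on the scaling. Set to the spike-ins, which moved the TPM of every gene by -0.17 log2 units before 1 was added, 4265 genes were lower and 325 higher. With the median-ratio scaling, which moved TPM in the same way by 0.05, 3268 were lower and 2502 higher. A correction for transcript length gave 2808 lower and 3544 higher.

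**Figure D1:**
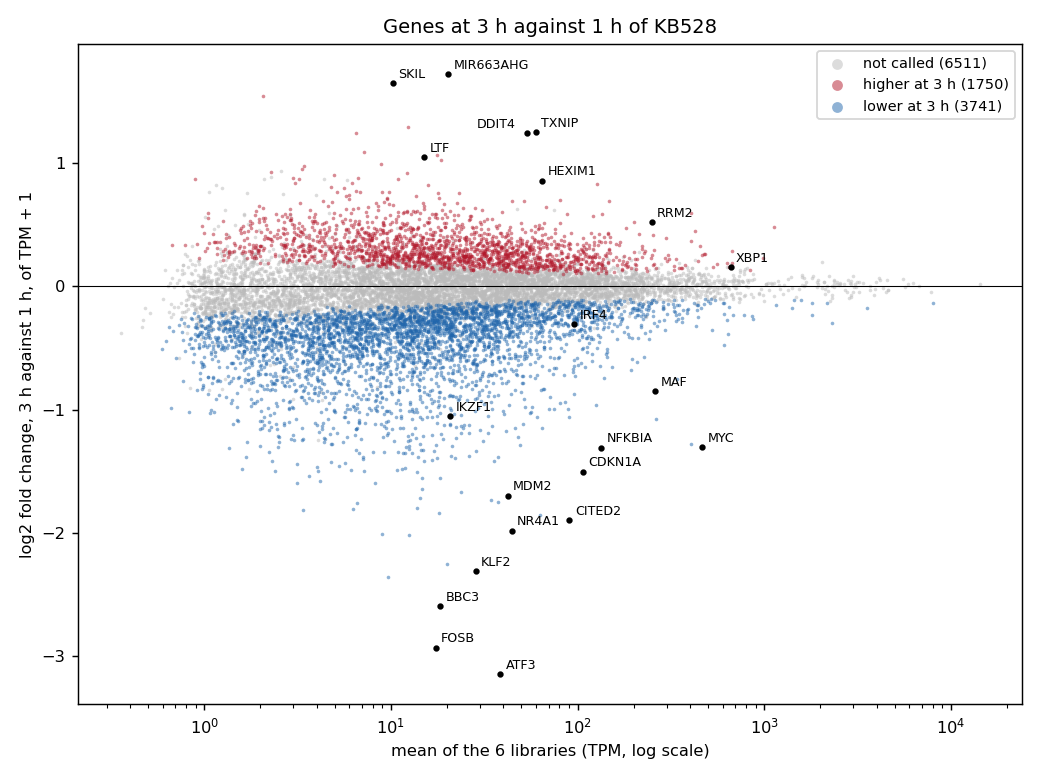
Each point is a tested gene, with its mean over the 6 libraries in TPM on a log axis and its log2 fold change of TPM + 1 at 3 h against 1 h. The 3741 lower genes, in blue, reach below -3, while the 1750 higher genes, in red, stay below 2.

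The promoters of 4 genes that the account returns to are printed first: FOSB and CITED2, which fell steeply, and SKIL and HEXIM1, which rose. They come from the RefSeq annotation of GRCh38.p14, and each runs from 250 bases before to 50 bases after the gene's start, read on its own strand. The windows are chr19:45467746-45468045 on the plus strand for FOSB, chr6:139374599-139374898 on the minus strand for CITED2, chr3:170357465-170357764 on the plus strand for SKIL and chr17:45148225-45148524 on the plus strand for HEXIM1. Capitals mark matches, on either strand, to a short set of motifs. A TATA box was searched as TATAAA, which helps to place the start of transcription. The GC box, bound by Sp and Kruppel-like factors, was searched as GGGCGG. The E-box of MYC and related factors was searched as CACGTG, and the CCAAT box by the letters of its name. The cAMP response element, bound by CREB and ATF proteins, was searched as TGACGTCA.
FOSB: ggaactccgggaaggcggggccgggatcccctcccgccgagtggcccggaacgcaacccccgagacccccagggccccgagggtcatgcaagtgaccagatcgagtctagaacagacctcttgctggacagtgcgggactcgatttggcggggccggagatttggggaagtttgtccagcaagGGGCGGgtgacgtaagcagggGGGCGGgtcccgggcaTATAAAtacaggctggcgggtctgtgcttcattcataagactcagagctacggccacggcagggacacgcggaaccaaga
CITED2: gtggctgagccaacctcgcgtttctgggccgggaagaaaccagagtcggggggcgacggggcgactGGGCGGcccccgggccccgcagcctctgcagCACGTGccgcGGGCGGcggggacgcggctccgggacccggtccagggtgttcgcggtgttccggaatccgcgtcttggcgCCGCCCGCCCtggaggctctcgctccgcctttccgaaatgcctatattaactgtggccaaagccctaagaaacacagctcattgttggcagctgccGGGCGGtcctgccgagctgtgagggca
SKIL: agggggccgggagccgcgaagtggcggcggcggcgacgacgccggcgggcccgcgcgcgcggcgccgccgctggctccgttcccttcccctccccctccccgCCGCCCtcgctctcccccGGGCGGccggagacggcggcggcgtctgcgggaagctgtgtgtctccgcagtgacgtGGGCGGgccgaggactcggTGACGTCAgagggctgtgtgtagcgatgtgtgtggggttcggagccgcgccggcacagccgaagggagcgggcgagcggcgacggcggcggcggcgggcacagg
HEXIM1: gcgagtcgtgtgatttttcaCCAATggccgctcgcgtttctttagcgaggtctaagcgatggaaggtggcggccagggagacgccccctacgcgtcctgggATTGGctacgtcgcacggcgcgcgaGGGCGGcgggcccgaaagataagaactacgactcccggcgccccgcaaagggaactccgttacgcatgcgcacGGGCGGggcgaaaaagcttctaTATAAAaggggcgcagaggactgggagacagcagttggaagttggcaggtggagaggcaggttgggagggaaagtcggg
FOSB and HEXIM1 each held 1 TATA box, whose first base lay at -30 and -29 from the start, and CITED2 and SKIL held none in this window. SKIL held 1 cAMP response element at -54, and CITED2 held 1 E-box at -153 among 5 GC boxes, of which 2 overlap. Of the 9282 tested genes with such a promoter, 5.24% held the TATA box, against 12% of all 27305 promoters. The TATA box was found in 4.8% of the higher and 5.61% of the lower genes. The cAMP response element was in 4.3% of the higher genes, 2.63% of the lower genes, 3.49% of all tested genes and 1.98% of all promoters. An AP-1 site, searched as TGANTCA on either strand, letters that do not occur within the cAMP response element, was in 3.11% of the higher genes, 5.02% of the lower genes, 4.24% of all tested genes and 7.76% of all promoters. A CCAAT box was in 41.8% of the higher genes, 34.8% of the lower genes, 37.8% of all tested genes and 35.7% of all promoters. The E-box was in 10.7% of the higher genes, 9.79% of the lower genes, 10.6% of all tested genes and 7.43% of all promoters, and the GC box in 68.9%, 71.4%, 71.1% and 44.6% of the same groups. A kappaB-like site, searched as GGGNNTTCC, was in 7.83% of the higher genes, 7.05% of the lower genes, 8.06% of all tested genes and 6.6% of all promoters. These matches describe letters in a window and were not tested.

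Immediate early genes, which signals switch on within minutes and whose messenger RNAs are short-lived, were among the steepest losses. ATF3, a stress-induced transcription factor of the ATF and CREB family, stood at 7.45, 6.29 and 7.47 TPM at 3 h, against 71.1, 71.9 and 67.7 TPM at 1 h. It was the largest decrease of all named genes, at -3.15 on the log2 scale (SE 0.068, adjusted p = 4.78e-07), and no 3 h library came near any 1 h library. FOSB, an AP-1 subunit whose promoter is shown above, had 2.96, 2.84 and 4.04 TPM at 3 h and 31.3, 32.3 and 30.8 TPM at 1 h. Its log2 fold change was -2.93 (SE 0.10, adjusted p = 1.59e-06), again without overlap. The 15 largest increases and 15 largest decreases were chosen among genes without overlap, so non-overlap is no further support for them. NR4A1, an orphan nuclear receptor, had 17.4, 16.3 and 18.3 TPM at 3 h and 71.3, 71.8 and 71.0 TPM at 1 h, a log2 fold change of -1.98 with libraries of 1 time within about 2 TPM of each other.

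Of the 30 tested members of the AP-1, EGR, NR4A and other immediate early genes, 24 fell and 0 rose, with a median of -0.67 against -0.06 for all genes. Beside the counts of this and every later list stand the 31.2% of all tested genes that fell and the 14.6% that rose. The AP-1 partners FOS and JUN changed by -1.80 and -1.75, FOSL1 by -1.04, EGR1 by -1.09 and the RNA decay factor ZFP36 by -1.14. NR4A2 at -0.16 and SRF, the factor that switches on many of these genes, at 0.11 did not pass the test. The members had not shared a course before 1 h. ATF3 averaged 8.75, 70.3, 7.07, 3.35 and 6.57 TPM from DMSO through 1, 3, 6 and 24 h, so that its 3 h level lay near that of DMSO. FOS averaged 43.1, 21.9, 5.58, 2.07 and 1.00 TPM over the same times, each mean below the one before it.

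The Kruppel-like factors, zinc finger transcription factors that bind GC-rich sequence, fell almost as a family, with 10 of 11 tested members lower, 0 higher and a median of -0.98. KLF2, which in lymphocytes is tied to quiescence and homing, had 9.54, 8.05 and 9.06 TPM at 3 h, against 45, 49.3 and 49.9 TPM at 1 h. That is a log2 fold change of -2.31 (SE 0.071, adjusted p = 1.06e-06), and the highest 3 h library was far below the lowest 1 h library. KLF2 averaged 42.6 TPM in DMSO and 48.1 TPM at 1 h. KLF6 followed at -1.67, KLF7 at -1.54, KLF9 at -1.41 and KLF15 at -1.22, and KLF5 at 0.06 did not pass.

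Genes of MAP kinase feedback, most of which restrain the pathway that induces them, also fell: 13 of 16 tested phosphatases, Sprouty-related and similar genes were lower and 2 higher, with a median of -0.76. DUSP5, a nuclear phosphatase for ERK, had 27.2, 25.4 and 27.7 TPM at 3 h and 98.6, 100.3 and 99.8 TPM at 1 h. Its log2 fold change was -1.86 (SE 0.045, adjusted p = 4.78e-07), and the 2 times did not overlap. DUSP4 changed by -1.55, DUSP8 by -1.23 and SPRED1 by -1.10. DUSP14 at 0.25 and DUSP7 at 0.26 were the 2 that rose.

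**Figure D2:**
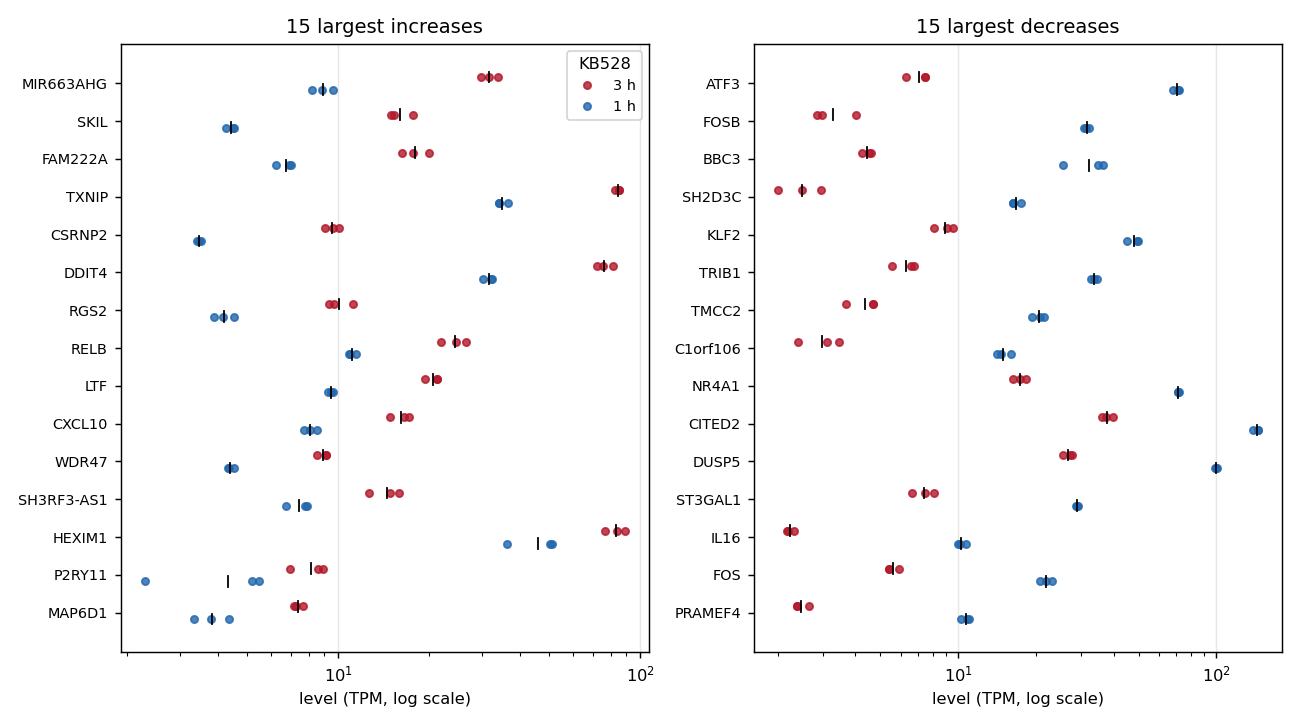
Level in TPM, on a log axis, of each library for the 15 genes with the largest increases and the 15 with the largest decreases, with 3 h in red above 1 h in blue and a black bar at each mean. Genes were eligible only if their 3 h and 1 h libraries did not overlap, so the separation in every row was set by the choice. The widest spread at 1 h was in P2RY11, BBC3 and HEXIM1.

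Among targets of p53, the tumor suppressor that triggers arrest and death, 16 of 28 tested members (57.1%) were lower and 3 (10.7%) higher. Beside these stand 31.2% and 14.6% of all tested genes, and the list had a median of -0.33. BBC3, which encodes the death protein PUMA, had 4.52, 4.58 and 4.23 TPM at 3 h and 34.7, 36.5 and 25.5 TPM at 1 h. Its log2 fold change was -2.59 (SE 0.12, adjusted p = 4.6e-06), and it held although 1 h replicate 3 stood below the other 1 h libraries. CDKN1A, which encodes the cell cycle inhibitor p21, had 56.6, 53.8 and 55.4 TPM at 3 h and 156, 157 and 163 TPM at 1 h, a change of -1.50. MDM2, the ligase that degrades p53, had 18.9, 19.1 and 20.1 TPM at 3 h and 63.8, 65.0 and 66.6 TPM at 1 h, a change of -1.70. Both had been low in DMSO, at 18.4 and 10.6 TPM, so the 3 h libraries lay between DMSO and 1 h. TP53INP1 fell by 1.65 on the log2 scale, while SERTAD1 at 0.55, the polymerase POLH at 0.30 and TRIAP1 at 0.14 rose. The death gene BAX at 0.03 and the repair gene DDB2 at 0.03 did not pass.

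Genes of the NF-kB pathway moved in both directions. NFKBIA, the inhibitor that holds NF-kB in the cytoplasm, had 77.5, 74.1 and 78.5 TPM at 3 h and 188, 193 and 192 TPM at 1 h, a log2 fold change of -1.31 (SE 0.039, adjusted p = 1.01e-06). The inhibitor TNFAIP3 at -0.86 and the nuclear relatives of NFKBIA, NFKBIZ at -0.71 and BCL3 at -0.63, fell as well. NFKBIA, TNFAIP3 and NFKBIZ averaged 24.0, 1.65 and 1.34 TPM in DMSO and 76.7, 2.66 and 3.92 TPM at 3 h. The 3 h means of these genes thus lay between those of DMSO and 1 h. RELB, a subunit of the alternative pathway, had 26.6, 22 and 24.6 TPM at 3 h and 10.9, 11.5 and 11 TPM at 1 h, and it rose by 1.07 on the log2 scale (SE 0.071, adjusted p = 2.01e-05). Its partner NFKB2 rose by 0.49 and NFKB1 by 0.16, while RELA at 0.06 and REL at -0.32 did not pass. Over the 26 tested members 9 were lower (34.6%) and 6 higher (23.1%), beside 31.2% and 14.6% of all tested genes. Spike-in scaling gave 11 lower and 4 higher and the length correction 8 lower and 9 higher, with the median of -0.07 turned to 0.07 under the length correction.

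The transcription factors of plasma cells and B cells fell broadly, with 21 of 29 tested members lower, 1 higher and a median of -0.56, and lower members outnumbered higher ones under each of the 4 scaling and length settings. MYC, the growth regulator on which myeloma cells lean, was counted not in this list but in the MYC network below. It had 269, 251 and 280.4 TPM at 3 h, against 662, 666 and 653 TPM at 1 h. Its log2 fold change was -1.31 (SE 0.046, adjusted p = 1.71e-06), and all 3 h libraries were below all 1 h libraries. POU2AF1, the B cell coactivator OCA-B, had 59.2, 53.9 and 64.8 TPM at 3 h and 121, 120.2 and 116 TPM at 1 h, a change of -1.0 (SE 0.065, adjusted p = 1.71e-05). IKZF1, the Ikaros factor that immunomodulatory drugs remove, had 13.5, 11.7 and 14.4 TPM at 3 h and 28.1, 28.6 and 28.6 TPM at 1 h, a change of -1.05. In the MYC network 5 of 12 members (41.7%) fell and 0 rose, beside 31.2% and 14.6% of all tested genes. Among those that fell were the repressors MNT at -0.95 and MXI1 at -0.86, and the partner MAX at -0.03 did not pass. IKZF3, a relative of IKZF1, changed by -0.35, a call that was lost under the length correction at -0.12.

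IRF4, the factor on which plasma cells depend, had 86.9, 78.3 and 92.0 TPM at 3 h, against 107, 107 and 104 TPM at 1 h. That is -0.30 on the log2 scale (SE 0.059, adjusted p = 0.00391), without overlap but well short of the change of MYC. PRDM1, which encodes BLIMP1, had 14.5, 12.8 and 16 TPM at 3 h and 23.3, 23.0 and 23.4 TPM at 1 h, a change of -0.66. XBP1, which drives the secretory machinery, had 681, 732 and 678 TPM at 3 h and 624, 626 and 626 TPM at 1 h and was the 1 member that rose, by 0.16 (adjusted p = 0.0155). Its value was -0.011 under spike-in scaling, and its call was lost without 1 h replicate 1 and without 1 h replicate 2. MAF had 188, 167 and 200.4 TPM at 3 h and 358, 360.5 and 289 TPM at 1 h, a change of -0.85 (SE 0.098, adjusted p = 0.000312). Of the 7 tested genes of the MAF program 6 fell, among them the kinase NUAK1 at -1.24 and the chemokine receptor CCR1 at -0.72. CCND2, the D cyclin that MAF raises, was at 189 ± 11 TPM at 3 h and 193 ± 1.59 TPM at 1 h (SD, n = 3 each), with overlapping libraries (-0.03, adjusted p = 0.696).

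Among 23 tested surface antigens and receptors of myeloma cells, 16 fell and 0 rose, with a median of -0.32. SDC1, the plasma cell antigen CD138, averaged 149 ± 9.19 TPM at 3 h and 239 ± 7.32 TPM at 1 h (SD, n = 3 each), a log2 fold change of -0.68. The interleukin-6 receptor chains IL6R and IL6ST changed by -0.91 and -0.67, IGF1R by -0.86 and CD38 by -0.32. TNFRSF17, the antigen BCMA, at -0.02 did not pass. Among 20 genes of JAK-STAT feedback and the PIM kinases, which act below the interleukin-6 receptor, 8 fell (40%) and 3 rose (15%), beside 31.2% and 14.6% of all tested genes, and the length correction gave 6 in each direction. The kinase PIM2 averaged 168 TPM at 3 h and 356 TPM at 1 h, a change of -1.08, while PIM1 rose by 0.28 and STAT3 at -0.16 did not pass.

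Among 16 lysine acetyltransferase and CITED genes 5 fell and 1 rose, and the 31.2% that fell of all tested genes is the same share. The length correction gave 4 lower and 5 higher. EP300, whose product KB528 is said to inhibit, had 29.2, 23.3 and 35.6 TPM at 3 h and 30.6, 30.2 and 29.8 TPM at 1 h (-0.06, adjusted p = 0.742). CREBBP had 24.0, 18.5 and 28.4 TPM at 3 h and 22.1, 22.6 and 21.4 TPM at 1 h (0.07, adjusted p = 0.671). In both genes 3 h replicate 2 was low and 3 h replicate 3 high, so the 3 h libraries lay on either side of the 1 h libraries. CREBBP passed the test without 3 h replicate 2, at 0.23, and under the length correction, at 0.32. CITED2, whose small protein binds p300 and CBP and keeps hypoxia factors off them, fell steeply. It had 35.9, 37.4 and 39.7 TPM at 3 h and 146, 145 and 139 TPM at 1 h, a log2 fold change of -1.90 (SE 0.048, adjusted p = 4.78e-07), with no overlap. From DMSO through 1, 3, 6 and 24 h it averaged 221, 143, 37.7, 80.8 and 198 TPM, so that 3 h was its low point among these times. Among deacetylases 8 of 17 fell (47.1%) and 2 rose (11.8%), beside 31.2% and 14.6% of all tested genes. HDAC7 changed by -1.17, HDAC9 by -0.88 and HDAC4 by -0.61, while SIRT1 rose by 0.61 and SIRT7 by 0.50. The class I enzymes HDAC1 at -0.01, HDAC2 at -0.12 and HDAC3 at 0.04 did not pass.

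The BCL2 family of death and survival genes had 8 of 16 tested members lower (50%) and 0 higher, beside 31.2% and 14.6% of all tested genes. Besides BBC3 the death genes BMF at -1.47, BAK1 at -0.67 and PMAIP1 at -0.56 fell, and so did the survival genes MCL1 at -0.75 and BCL2 at -0.58. MCL1 averaged 97.8, 175, 104, 96.3 and 87.9 TPM from DMSO through 1, 3, 6 and 24 h, so that its 3 h level lay near that of DMSO. Interferon-stimulated genes were lower in 19 of 34 members (55.9%) and higher in 3 (8.82%), beside the same shares of all tested genes. IFIT3 changed by -1.25, OAS1 by -1.07 and IRF1 by -1.05, while IRF7 rose by 0.36.

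The genes that rose were fewer and mostly moved less. MIR663AHG, a long non-coding RNA that hosts a microRNA, had 31.6, 29.8 and 33.7 TPM at 3 h, against 9.62, 8.88 and 8.22 TPM at 1 h. Its log2 fold change of 1.72 (SE 0.070, adjusted p = 2.76e-06) was the largest increase among the genes named. SKIL, which encodes SnoN, a brake on SMAD signalling, had 15.4, 15 and 17.8 TPM at 3 h and 4.25, 4.53 and 4.50 TPM at 1 h. It rose by 1.65 (SE 0.073, adjusted p = 3.62e-06), and its relative SKI rose by 0.49. In the same pathway SMAD3 changed by -1.12, the inhibitory SMAD6 by -0.88 and the receptor TGFBR2 by -0.99, while SMAD2 at -0.01 and SMAD4 at 0.14 did not pass. Over the 24 members 10 fell (41.7%) and 4 rose (16.7%), beside 31.2% and 14.6% of all tested genes. Under the length correction 9 fell and 11 rose.

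TXNIP, an arrestin-like protein that limits glucose uptake, and DDIT4, an inhibitor of the kinase complex mTORC1, rose together. TXNIP had 85.3, 82.8 and 85.3 TPM at 3 h and 34.1, 34.0 and 36.5 TPM at 1 h, a log2 fold change of 1.25 (SE 0.044, adjusted p = 1.71e-06). DDIT4 had 75.2, 71.7 and 81.1 TPM at 3 h and 32.1, 32.4 and 30.1 TPM at 1 h, a change of 1.24 (SE 0.056, adjusted p = 3.89e-06). In neither gene did the 2 times overlap, which was a condition for a place among the 15 largest increases. TXNIP averaged 177, 34.9, 84.4, 186 and 142 TPM, and DDIT4 101, 31.5, 76.0, 164 and 155 TPM, from DMSO through 1, 3, 6 and 24 h. At 3 h both were therefore above 1 h yet below DMSO. The related arrestin ARRDC3 rose by 0.76.

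HEXIM1, which holds the elongation kinase P-TEFb inactive and is often used as a readout of bromodomain inhibition, had 83.9, 76.2 and 89.2 TPM at 3 h. At 1 h it had 50.1, 51.1 and 36.2 TPM, with replicate 3 the low one. It rose by 0.86 (SE 0.13, adjusted p = 0.00103), and 3 h was its highest mean among the 5 times, at 83.1 TPM. Among 28 tested BET, P-TEFb and elongation genes 8 rose and 3 fell, with MEPCE at 0.57, CDK13 at 0.48, HEXIM2 at 0.46 and BRD2 at 0.30 among those that rose and AFF1 at -0.95 among those that fell. Under spike-in scaling the same list had 4 higher and 5 lower members, and BRD2 lost its call. Other large increases were CSRNP2 at 1.24, the G protein regulator RGS2 at 1.09, the iron-binding secreted protein LTF at 1.05 and the chemokine CXCL10 at 0.92. P2RY11 at 0.84 lies beside PPAN, with which it forms readthrough transcripts, so reads may be shared, and its call was lost without 3 h replicate 1 and without 3 h replicate 3.

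**Figure D3:**
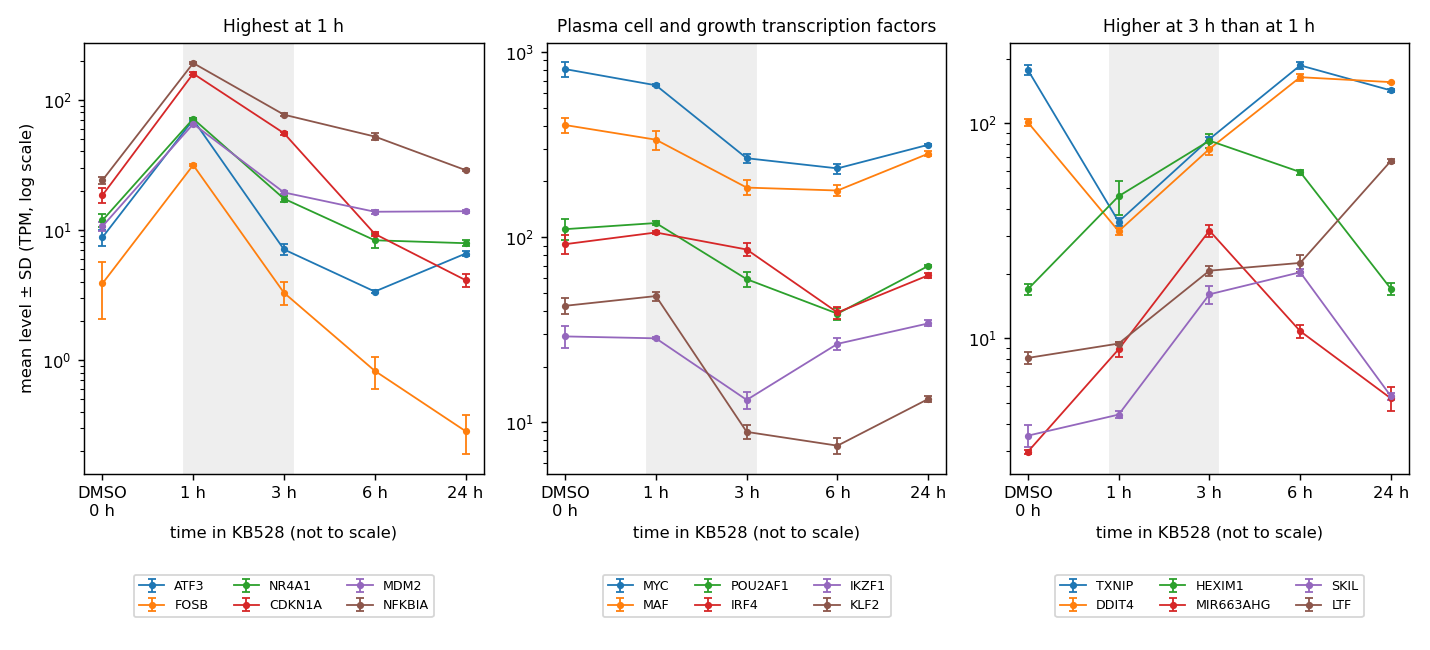
Mean level in TPM on a log axis, with SD over 3 libraries, of 18 genes from DMSO through 1, 3, 6 and 24 h of KB528, with the step from 1 h to 3 h shaded. The left panel shows genes whose highest mean was at 1 h, the middle one transcription factors, and the right one genes that rose, among which TXNIP and DDIT4 were lowest at 1 h.

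Many genes of growth and of the gene expression machinery were higher by small amounts that depended on the scaling. Of 55 nucleolar ribosome biogenesis genes, many of them MYC targets, 26 rose and 0 fell, with a median of 0.15, at a time when MYC itself was lower. Among them LYAR averaged 105 ± 7.07 TPM at 3 h and 70.0 ± 6.69 TPM at 1 h, NOB1 290 ± 7.08 TPM at 3 h and 216 ± 4.80 TPM at 1 h, and POLR1C 128 ± 5.30 TPM at 3 h and 102 ± 1.27 TPM at 1 h (SD, n = 3 each). Under spike-in scaling 2 of the 55 were higher and 1 lower, with a median of -0.02. SR and hnRNP splicing factors had 15 of 38 members higher and 1 lower (2 and 0 under spike-in scaling, where the median was -0.09), led by SRSF6 at 0.52. Mediator and RNA polymerase II initiation genes had 18 of 59 higher and 8 lower, but 1 higher and 11 lower under spike-in scaling.

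Cell cycle genes moved in both directions, and the counts depended on the scaling. In the list of 54 genes of DNA replication and the G1/S step, 17 members were higher at 3 h and 7 lower. RRM2, the subunit of ribonucleotide reductase that peaks in S phase, had 292, 290.5 and 303 TPM at 3 h and 205, 207 and 204 TPM at 1 h (0.52, SE 0.036, adjusted p = 2.17e-05). Spike-in scaling reversed this majority, to 3 higher and 7 lower, and put RRM2 at 0.36 without a call. Of 60 mitosis and G2/M genes, 26 fell (43.3%) and 6 rose (10%), beside 31.2% and 14.6% of all tested genes. The checkpoint kinases BUB1 and BUB1B changed by -0.53 each and the kinesin KIF14 by -0.71, while CDK1 rose by 0.21. Spike-in scaling gave 25 lower and 0 higher, and the length correction 19 lower and 17 higher. Of 21 G1 cyclins, kinases and inhibitors 7 fell (33.3%, beside 31.2% of all tested genes) and 6 rose, against 7 and 2 under spike-in scaling and 7 and 10 under the length correction. The kinase CDK6 at -0.89 and the cyclin CCND1 at -0.53 fell, while the cyclins CCNE1 at 0.59 and CCNE2 at 0.52 rose.

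Few genes of the large housekeeping complexes passed the test. Among 78 cytosolic ribosomal protein genes 2 passed the test, both lower, RPL13A at -0.28 and RPL36A at -0.17. Among 60 nuclear genes of oxidative phosphorylation 2 were lower and 1 higher, and among 38 proteasome genes 1 was lower and 1 higher. Their medians were 0.02, 0.03 and 0.04, and all 3 turned negative under spike-in scaling. The proteasome count also depended on the scaling, with 14 higher and 1 lower under the length correction and 8 higher and 1 lower when TPM was rescaled to genes alone, while oxidative phosphorylation had 6 higher and 2 lower under the length correction. In the 45 chaperone and secretion genes of the endoplasmic reticulum, 6 fell and 5 rose, against 5 and 0 under spike-in scaling and 5 and 17 under the length correction. HERPUD1, a membrane protein of the degradation pathway there, averaged 254 ± 1.83 TPM at 3 h and 430 ± 2.5 TPM at 1 h (SD, n = 3 each), a log2 fold change of -0.76, and the stress sensor ERN1 changed by -1.23, while the chaperone HSPA5 rose by 0.23. Over all 35 lists 27 had more lower than higher calls and 7 more higher than lower. All tested genes leaned the same way, with 31.2% lower and 14.6% higher, so this count is no result about the lists. The sign of the median was kept by 16 lists under each of the 4 scaling and length settings.

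**Figure D4:**
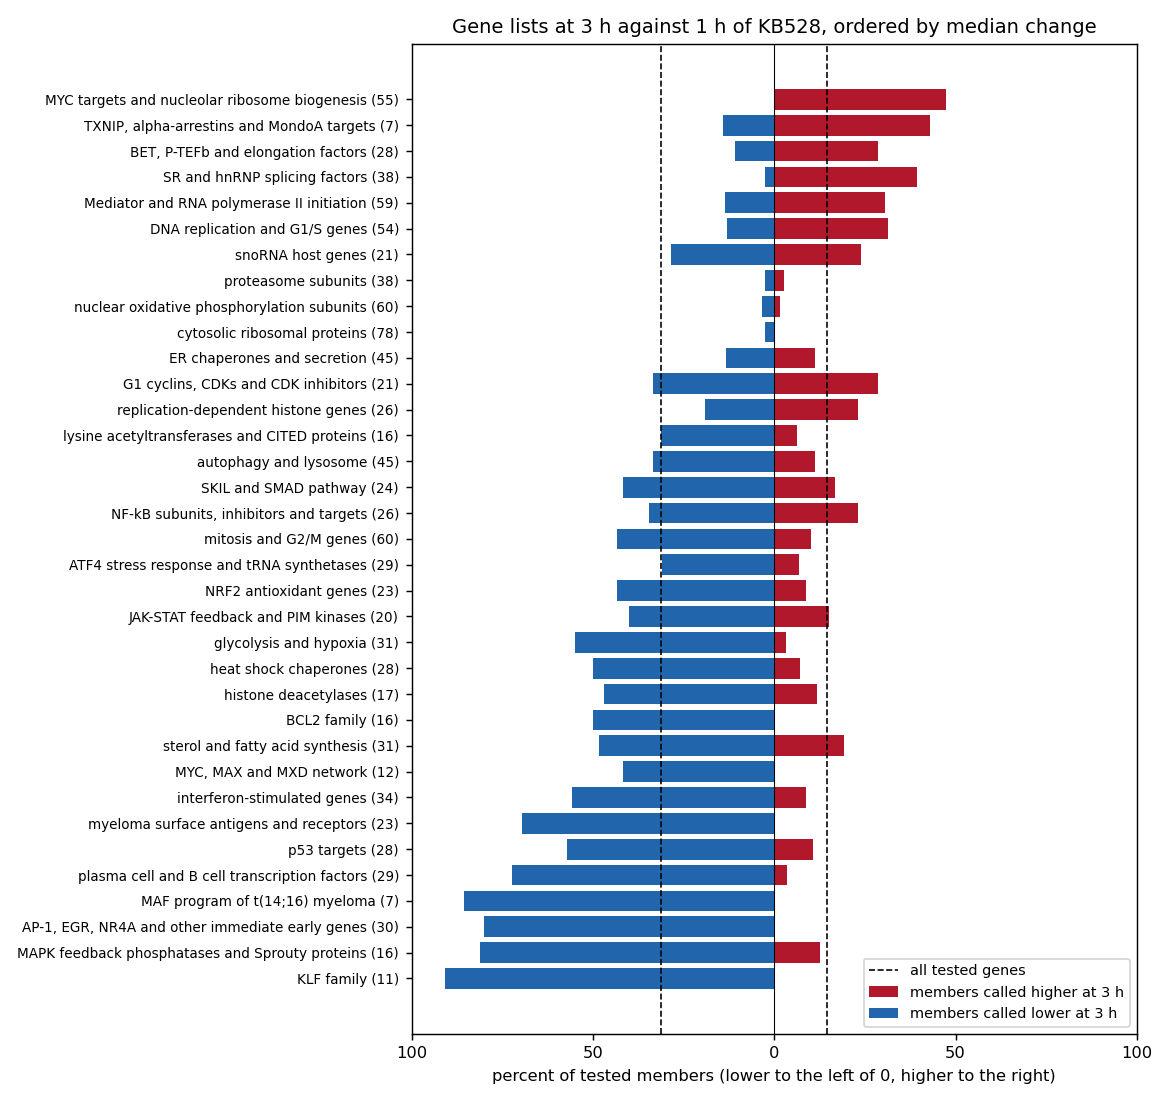
Percent of the tested members of each of 35 gene lists called higher (red, right of 0) and lower (blue, left of 0) at 3 h against 1 h, ordered by median change, with the number tested in brackets. Dashed lines mark the 14.6% and 31.2% of all tested genes, and Kruppel-like factors lie at the bottom with 10 of 11 members lower.

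Genes that span more of the genome were lower more often. Protein-coding genes were ranked by the span from the first to the last annotated base and divided into 10 groups of equal size. In the group of longest span (median 225331 bases), 60.4% of genes were lower and 2.62% higher, with a median of -0.27. In the group of shortest span (median 3280 bases), 22% were lower and 15.5% higher, with a median of -0.01. The median of the group of longest span was -0.42 under spike-in scaling, -0.23 under median-ratio scaling and -0.11 under the length correction, and lay between -0.32 and -0.23 when each library was left out. That of the group of shortest span was -0.17 under spike-in scaling, 0.04 under median-ratio scaling and 0.04 under the length correction. Transcript length moved with span: 47% of genes were lower in the group of longest transcripts and 12.7% in the group of shortest. The middle of 5 groups by transcript length was divided again into 5 by span. There 28.6%, 23.7%, 27.2%, 34% and 42.9% of genes were lower, from the group of shortest span to that of longest span. Lower genes had a median of 11 exons and higher genes 7, against 9 for all tested. Long non-coding RNAs were 5.43% of the lower genes and 1.2% of the higher genes, against 4.22% of all tested genes.

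**Figure D5:**
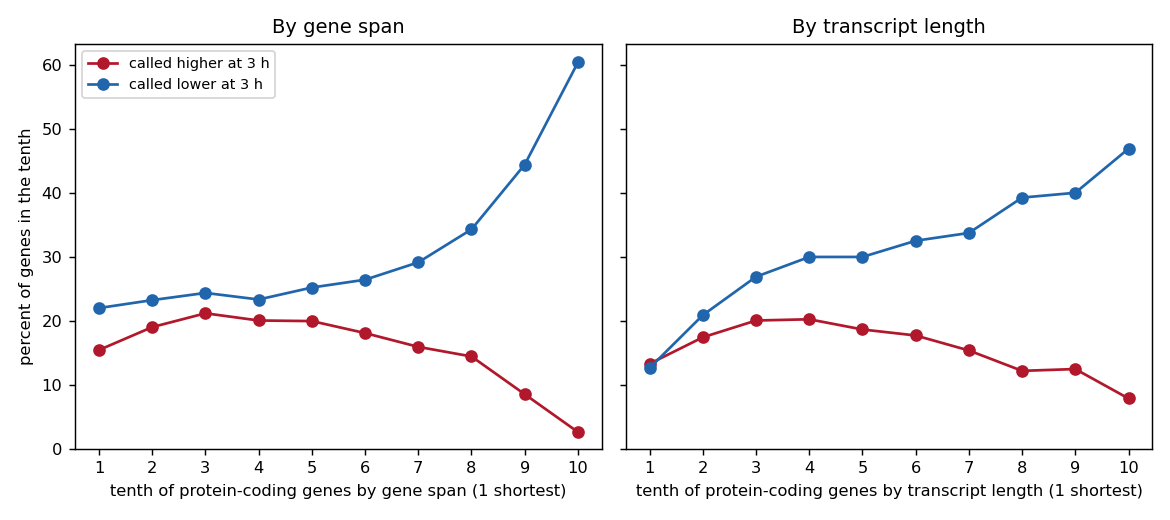
Percent of protein-coding genes called higher (red) and lower (blue) at 3 h against 1 h, in 10 groups of equal size by gene span on the left and by transcript length on the right, from shortest to longest. The share that was lower climbs to 60.4% in the group of longest span, where the share that was higher is 2.62%.

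What became of these genes later was read from libraries outside the comparison. At 24 h against 6 h, fitted on those 6 libraries alone, 43.5% of all tested genes were higher and 28.7% lower. Of the 3741 genes that had been lower at 3 h, 2745 (73.4%) were higher at 24 h than at 6 h and 305 (8.15%) lower, with a median of 0.38. Of the 1750 genes that had been higher at 3 h, 151 (8.63%) were higher at 24 h than at 6 h and 1217 (69.5%) lower, with a median of -0.28. The group of longest span had a median of 0.27 in the same comparison and the group of shortest span 0.03, and the part of span in these shares was not tested. At 6 h against DMSO, likewise fitted on its own 6 libraries, 1513 of the 1750 genes (86.5%) were higher and 1933 of the 3741 (51.7%) lower, against 41.2% and 22.7% of all genes. These later contrasts were fitted on TPM without rescaling, and how their shares depend on the scaling was not tested.

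Single genes took different routes. IKZF1 averaged 29.1, 28.4, 13.2, 26.5 and 34.2 TPM and DUSP5 145, 99.6, 26.8, 121 and 161 TPM from DMSO through 1, 3, 6 and 24 h, both with their low point at 3 h. IRF4 averaged 91.6, 106, 85.8, 39.2 and 62.2 TPM over the same times and was lowest at 6 h. MYC averaged 808, 660.4, 267, 235 and 315 TPM, with its lowest mean at 6 h. FOSB at 3.87, 31.5, 3.28, 0.825 and 0.284 TPM and CDKN1A at 18.4, 159, 55.3, 9.30 and 4.10 TPM went on falling after 3 h. Among the genes that rose, LTF had its highest mean at 24 h, at 8.12, 9.46, 20.6, 22.4 and 66.9 TPM, SKIL at 6 h, at 3.53, 4.42, 16, 20.3 and 5.38 TPM, and MIR663AHG at 3 h, at 2.97, 8.91, 31.7, 10.8 and 5.26 TPM. The 6 h means stand beside the 3 h means as values, since the 3 h libraries would serve in both steps.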

How the data were processed

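RNA from RPMI-8226 cells was made into strand-specific mRNA libraries, per the labels' protocols. Values are TPM in a single table that the authors deposited (26456 rows, of which 92 are ERCC spike-ins, by 15 columns that each sum to 1000000). STAR, featureCounts, FastQC, MultiQC and the build hg19 are named, per the submitters' processing notes, without versions. The sources used here do not give the step at which spike-ins were added or the reads behind a value, so the counting error of low levels cannot be stated. DMSO columns are headed as no treatment in the file and were matched by time and replicate number, with no column left unused.

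The 6 libraries entered a limma fit (version 3.58.1, R 4.3.3, lmFit and trended eBayes) on log2(TPM + 1), with no covariate, Benjamini-Hochberg adjustment over 12002 genes and a threshold of 0.05. Fold changes on this scale understate those of low genes. Each later contrast was fitted on the 6 libraries of its own 2 groups. Genes were filtered on all 15 libraries in every case. The procedure was tested on simulated data. Tables and figures were made in Python 3.11.15.

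The genes, lists and alternatives were chosen with earlier results of these data known. Named genes were 25 chosen regulators, the 15 largest increases and decreases with a mean of at least 5 TPM and no overlap, up to 4 called members of each list in its leading direction, and 5 small RNA genes. Further members are named as examples of their list, after their values were seen. Counting of small RNA genes, multicopy genes and overlapping genes is uncertain. Transcript lengths came from GENCODE, and spans, names and promoters from RefSeq on GRCh38.p14, matched by name for 95.6% of gene rows. Alternatives were the pseudocount, the filter, the scaling, a length correction, the libraries fitted together, the replicate block and each library left out.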

Additional observations from a re-analysis of the deposited data

How the results depend on the processing

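The 1750 genes higher at 3 h became 325 under spike-in scaling and 3544 under a correction for transcript length, of which 294 and 1750 were among the original calls. The 3741 lower genes became 4265 and 2808, with 3557 and 2795 shared. The cause was not tested. Leaving out each library in turn gave 1295 to 2019 higher and 2953 to 4141 lower genes. A pseudocount of 0.1 TPM gave 1744 higher and 3710 lower, a filter of 5 TPM 1491 and 2850, no filter 1566 and 3710, and median-ratio scaling 2502 and 3268. Of 165 named genes 162 were called. Of these, 138 kept call and direction under every setting in which they were tested, 119 of them under all 18. Most named genes were chosen because they were called or had changed most, so the number called follows largely from the choice. Their stability does not speak for all calls, of which spike-in scaling kept 294 of 1750 higher and 3557 of 3741 lower genes. The named genes that were reversed were XBP1 under spike-in scaling, at -0.011, and CCND2 under the length correction, at 0.15. The deviations of same-numbered 3 h and 1 h libraries correlated at 0.15, -0.06 and -0.01, so the numbers were not taken to pair samples, and a fit with the replicate block gave 1512 higher and 3427 lower genes. Read depth is unknown in absolute terms, which limits what can be said of genes near 1 TPM.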

Other observations

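Gene groups of metabolism and stress are set beside the 31.2% of all tested genes that were lower and the 14.6% that were higher. The lower share was near that of all tested genes in the autophagy list (33.3%) and the ATF4 list (31%). It was 43.5% to 54.8% in the other lists given here. Among 31 glycolysis and hypoxia genes 17 fell and 1 rose, with ANKRD37 at -1.47, the peptide hormone gene ADM at -0.74 and the kinase PDK1 at -0.54, while hexokinase HK2 rose by 0.27. Among 31 sterol and fatty acid synthesis genes 15 fell and 6 rose, with the fatty acid elongase ELOVL6 at -0.59 and the regulator SREBF1 at -0.51, while INSIG1 rose by 0.26 and IDI1 by 0.42. Among 28 heat shock chaperones 14 fell and 2 rose, with BAG3 at -0.59 and HSPB1 at -0.27. For this list the length correction gave 6 higher and 8 lower, and spike-in scaling 0 higher and 10 lower. Among 45 autophagy and lysosome genes 15 fell and 5 rose: the kinase ULK1 changed by -1.02 and the lysosomal regulator TFEB by -0.71, while the autophagy receptor SQSTM1 rose by 0.60. The median of that list, -0.06, was 0.06 under the length correction, with 14 higher and 10 lower. Among 29 genes of the ATF4 stress response 9 fell and 2 rose, with the glutathione-degrading enzyme CHAC1 at -1.26 and ATF4 itself at -0.36, while ATF5 rose by 0.40, and the length correction gave 7 higher and 8 lower. Among 23 NRF2 antioxidant genes 10 fell and 2 rose, with the cystine transporter SLC7A11 at -0.53 and HMOX1, the heme oxygenase, higher by 0.15.

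Small RNA genes are poorly captured in mRNA libraries, and their values are given only as read. SNORD75 averaged 25.2 ± 4.65 TPM at 3 h and 11.9 ± 2.63 TPM at 1 h, and SNORD37 averaged 4.27 ± 0.726 TPM at 3 h and 10.3 ± 1.16 TPM at 1 h (SD, n = 3 each). MIR663A, which lies with MIR663AHG so that reads may belong to either, averaged 164 ± 12.5 TPM at 3 h and 91.5 ± 6.65 TPM at 1 h (SD, n = 3 each). MIR4750 had 4.10, 1.20 and 1.26 TPM at 3 h and 15.8, 5.18 and 4.09 TPM at 1 h, with overlapping libraries. Among 26 replication-dependent histone genes, whose main transcripts have no poly(A) tail, 6 rose and 5 fell, and spike-in scaling gave 1 higher and 11 lower.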
